A study of Mus musculus with 6 samples.

Results

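The alcohol and aldehyde dehydrogenases described here are 10 genes, Adh1, Adh4, Adh5, Adh7, Aldh2, Aldh1b1, Aldh3a2, Aldh1l1, Aldh8a1 and Aldh6a1, found by symbol among the 24197 genes of a comparison of male with female mouse liver. Each symbol matched 1 gene. The animals, intact adults of the outbred CD-1 stock from Charles River, were males of 7 to 9 weeks and females of 7 to 11 weeks of age. Poly-A selected RNA was sequenced from 3 male pools of 17 livers each and 3 female pools of 12 livers each, so pool size and upper age went with sex. Each gene has an authors' mean FPKM per sex (fragments scaled to gene length and library total), once for the gene body and once for introns only. The sources used here do not give whether gene body values include intronic reads. Adh6a, which is not a member, was listed at 0 FPKM in the gene body but at 0.000490 FPKM in female introns. For that gene the gene body value thus did not take in the intronic reads, and for the members this was not tested. The means carry no standard deviation, so the only measure of error is the authors' adjusted p-value, and a gene is called here where it is under 0.05.

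Alcohol dehydrogenases oxidise alcohols to aldehydes with NAD, and aldehyde dehydrogenases oxidise the aldehydes on to acids. In liver this pair of steps clears ethanol by way of acetaldehyde, and related enzymes handle formaldehyde, retinoids, fatty aldehydes and the aldehydes that arise when amino acids, folates and pyrimidines are broken down. The Adh genes of the mouse lie together on chromosome 3 and encode cytosolic enzymes of different classes, while the Aldh genes are scattered and their enzymes work in cytosol, mitochondria or the endoplasmic reticulum.

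Library totals recovered from lone reads on small RNA genes were 28358105 to 41206357 reads in the female and 28415535 to 42673908 reads in the male pools. The hepatocyte markers Alb, Apoa1, Ttr, Tat, Cps1, Serpina1a and Fgb were all present. Alb and Cps1 were called higher in female liver and Apoa1 and Serpina1a higher in male liver, and the summed means of 26388 FPKM in females and 21086 FPKM in males were mostly Alb (19411 and 12608 FPKM). Of 8 pericentral hepatocyte markers, 0 were male-biased (called and higher in male liver) and 4 female-biased. Their sums (1609 and 1501 FPKM, female first) were mostly Cyp2e1, which was not called (1348 and 1332 FPKM). Of 7 periportal markers 1 was male-biased, Cyp2f2, and 4 were female-biased. The higher male sum of the periportal markers (809.6 and 968.5 FPKM, female first) came from Cyp2f2 alone (288.4 and 531.4 FPKM). All 5 listed Kupffer cell markers, among them Clec4f and Marco, were higher in female liver (summed 97.9 against 61.4 FPKM in male). Of 5 erythroid markers, 4 were called higher in male liver (summed 121 FPKM in female and 220.3 FPKM in male). Hba-a1 and Hba-a2, both among these, were listed at nearly the same location with the same ratio of 1.90, so they cannot be taken as separate markers. None of 6 endothelial markers was called, and 2 of 6 stellate markers were called, both higher in female liver. Of 5 cholangiocyte markers 1 was called, Spp1, higher in male liver (8.05 FPKM in female, 12.8 FPKM in male). Among 8 kidney and pancreas markers 1 was called, Pnlip, higher in male liver (0.0309 FPKM in female, 0.410 FPKM in male). The sums of these 8 (17.2 and 20.0 FPKM, female first) were mostly Cela1 (16.7 and 18.4 FPKM), which was not called. In such bulk samples fewer cells of a type and less RNA per cell cannot be told apart, and the part of these markers in the results below was not tested.

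The bases just before the transcription starts of the members that were called, and of Adh5 as the member of the cluster that was not, are shown so that the neighbouring Adh genes can be compared at the sequence level. The stretches are the 100 bases upstream of RefSeq starts on GRCm38.p6, a later build than the mm9 of the deposited values, and 9 of the 10 members matched an entry. Capitals mark CCAAT and GGGCGG, read on both strands.
Adh1 (chr3:138277485-138277584, plus strand): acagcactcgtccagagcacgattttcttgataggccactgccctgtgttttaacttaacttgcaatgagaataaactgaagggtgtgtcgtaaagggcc
Adh4 (chr3:138415397-138415496, plus strand): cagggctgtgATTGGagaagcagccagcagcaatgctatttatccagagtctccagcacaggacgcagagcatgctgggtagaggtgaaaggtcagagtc
Adh7 (chr3:138217673-138217772, plus strand): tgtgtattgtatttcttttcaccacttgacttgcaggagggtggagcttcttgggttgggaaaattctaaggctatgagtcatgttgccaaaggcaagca
Adh5, upstream start (chr3:138437100-138437199, plus strand): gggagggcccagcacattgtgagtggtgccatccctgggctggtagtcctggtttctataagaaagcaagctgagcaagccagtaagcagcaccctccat
Adh5, downstream start (chr3:138442993-138443092, plus strand): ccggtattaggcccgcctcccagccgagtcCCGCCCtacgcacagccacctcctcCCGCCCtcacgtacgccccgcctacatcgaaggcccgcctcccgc
Aldh1b1 (chr4:45798922-45799021, plus strand): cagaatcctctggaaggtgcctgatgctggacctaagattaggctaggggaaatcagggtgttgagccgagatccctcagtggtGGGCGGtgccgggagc
Aldh3a2 (chr11:61267187-61267286, minus strand): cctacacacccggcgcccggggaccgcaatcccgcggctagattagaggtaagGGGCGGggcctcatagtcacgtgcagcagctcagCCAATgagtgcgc
The downstream Adh5 start had 73.0% G and C, 12 CpG pairs and 2 GGGCGG motifs, read as CCGCCC on the strand shown. The upstream Adh5 start had 56.0% G and C, 0 CpG pairs and no CCAAT or GGGCGG. The starts of Adh1 and Adh7 had 46.0% and 44.0% G and C and neither motif. Adh4 had 54.0% G and C and 1 CCAAT, read as ATTGG. Aldh3a2 had 9 CpG pairs with 1 CCAAT and 1 GGGCGG, and Aldh1b1 had 3 CpG pairs with 1 GGGCGG. Of 32851 RefSeq promoter stretches of this length, 18.9% held CCAAT and 24.7% GGGCGG. Their medians were 55.0% G and C and 3 CpG pairs. Neither TATAAA, present in 5.56% of all stretches, nor TTCNNNGAA, the core to which STAT factors bind, present in 2.55%, occurred in any of these members' stretches. These matches describe the letters in the window and not sites of binding.

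Among the 10 genes, 3 were higher in female liver (Adh1, Aldh1b1 and Aldh3a2), 2 were higher in male liver (Adh4 and Adh7), and 5 were not called. The background in the authors' deposited table was 1808 of 17997 genes called in either direction (10%), 4.61% towards male and 5.44% towards female liver. Among the 4411 genes with a mean of at least 5 FPKM it was 16.8% (9.07% male and 7.75% female). That level was chosen after the data were seen and was reached by all 10 members. The share called rose with level, at 13.8% for a minimum of 0.5 FPKM. All members but Adh7 lay between percentiles 93.9 and 99.7 of mean FPKM among the 17997 genes. No background matched to such levels was counted. All differences were small. The largest was 1.78-fold, so none of the 10 reached 2-fold. The median log2 ratio of male over female was -0.20 over the members and 0.04 over all genes of at least 5 FPKM. Summed over the 10 genes, the means came to 1502 FPKM in females and 1206 FPKM in males.

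**Figure D1:**
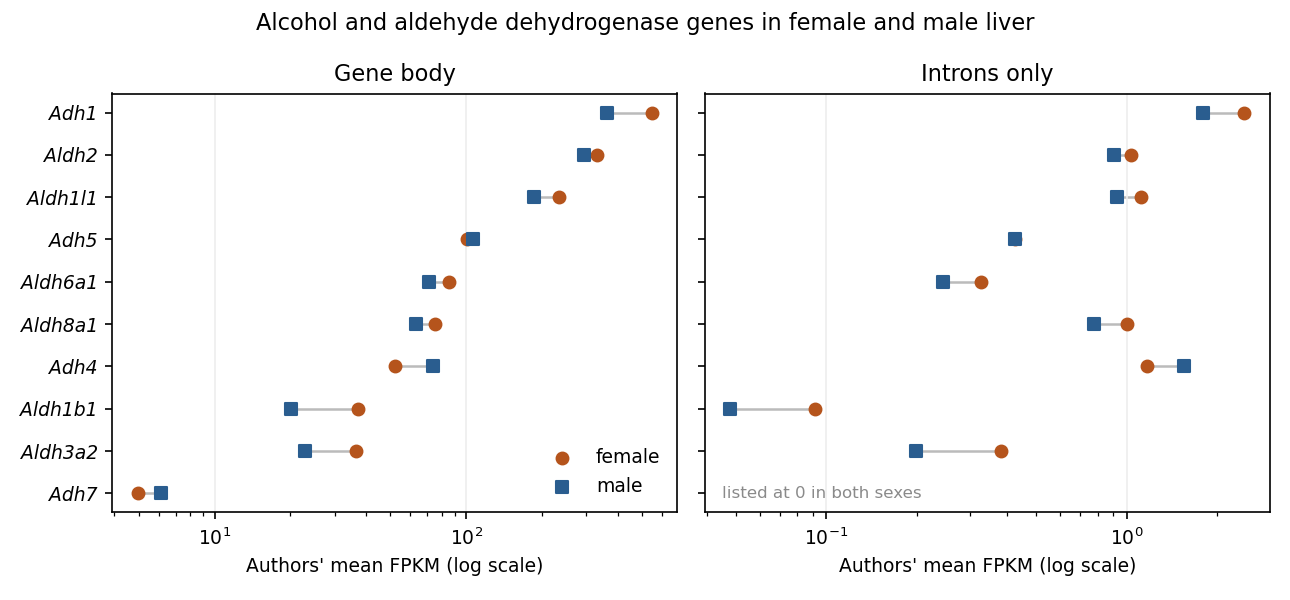
Authors' mean FPKM of each member in female (circles) and male (squares) liver on log axes, from the gene body at left and introns only at right. Levels ran from about 5 FPKM for Adh7 to 546 FPKM for Adh1 in female liver, and Adh7 was listed at 0 in introns.

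Adh1, the class I enzyme that carries most of the ethanol oxidation by alcohol dehydrogenase in mouse liver, was the most abundant member in both sexes. Its authors' mean was 546 FPKM in females and 363 FPKM in males (chromosome 3, 137940609 to 137953655, mm9). The authors' deposited table put it 1.45-fold higher in female liver, with an adjusted p of 2.79e-07. It alone made up 27.1% of the summed FPKM of the 27 listed Adh and Aldh genes in female liver and 21.1% in male liver. Intron values can hold reads of RNA that is not yet spliced. In introns Adh1 was listed at 2.46 FPKM in females and 1.79 FPKM in males. The adjusted p for introns in the authors' deposited table was 0.477. The female mean was thus the higher in both measures, and the intron difference did not pass.

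Adh4, the class II enzyme, which acts on longer alcohols and retinol, went the other way. It was listed at 52.2 FPKM in females and 73.8 FPKM in males (chromosome 3, 138078461 to 138093856). Its male excess of 1.47-fold in the authors' deposited table carried an adjusted p of 5.69e-07. Its introns, at 1.17 FPKM in females and 1.56 FPKM in males, gave nearly the same 1.45-fold difference with an adjusted p of 0.0225 in the authors' deposited table. Adh4 had the highest intron level of the members relative to its gene body: the gene body was 44.6 times the introns in female liver for Adh4, against 222 times for Adh1 and 237 times for Adh5. With the opposite directions of Adh1 and Adh4, the level of Adh1 was 10.5 times that of Adh4 in female and 4.92 times in male liver.

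Adh5, the class III enzyme that oxidises the glutathione adduct of formaldehyde and reduces S-nitrosoglutathione in nearly all tissues, was not called. It was listed at 100.7 FPKM in females and 106.6 FPKM in males (chromosome 3, 138106057 to 138118463, the first of its 2 locations in the table), and the authors' deposited table gave an adjusted p of 0.543. Its intron means were 0.425 FPKM in both sexes.

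Adh7, the class IV enzyme known from the lining of stomach and oesophagus, was the least abundant member (chromosome 3, 137880737 to 137895006). It was listed at 4.96 FPKM in females and 6.10 FPKM in males, which the authors' deposited table called 1.27-fold male-biased, with an adjusted p of 0.0329. Stomach and oesophagus markers were near absent: Gkn1, Gkn2, Krt13, Muc5ac and Tff1 were listed at 0, and the 9 markers summed to 0.107 FPKM in females and 0.221 FPKM in males. The whole of Adh7 lies within the span of the antisense gene 0610031O16Rik (137873681 to 137902627), which was itself higher in male liver at 13.5 against 9.66 FPKM. The libraries were strand-specific, but the use of strand in counting is not given in the sources used here, so reads of Adh7 and of its antisense partner cannot be told apart. Adh7 has 9 exons, yet its introns were listed at 0 in both sexes. Introns were listed at 0 in both sexes for 27 of 31 genes inside a gene of the opposite strand (87.1%), Adh7 itself included. The share was 12 of 5997 among genes that no listed gene overlaps (0.200%). All had a mean of at least 1 FPKM and at least 1000 intronic bases, and this check was chosen after the data were seen. The intron value of 0 therefore gives no information on unspliced Adh7 RNA.

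**Figure D2:**
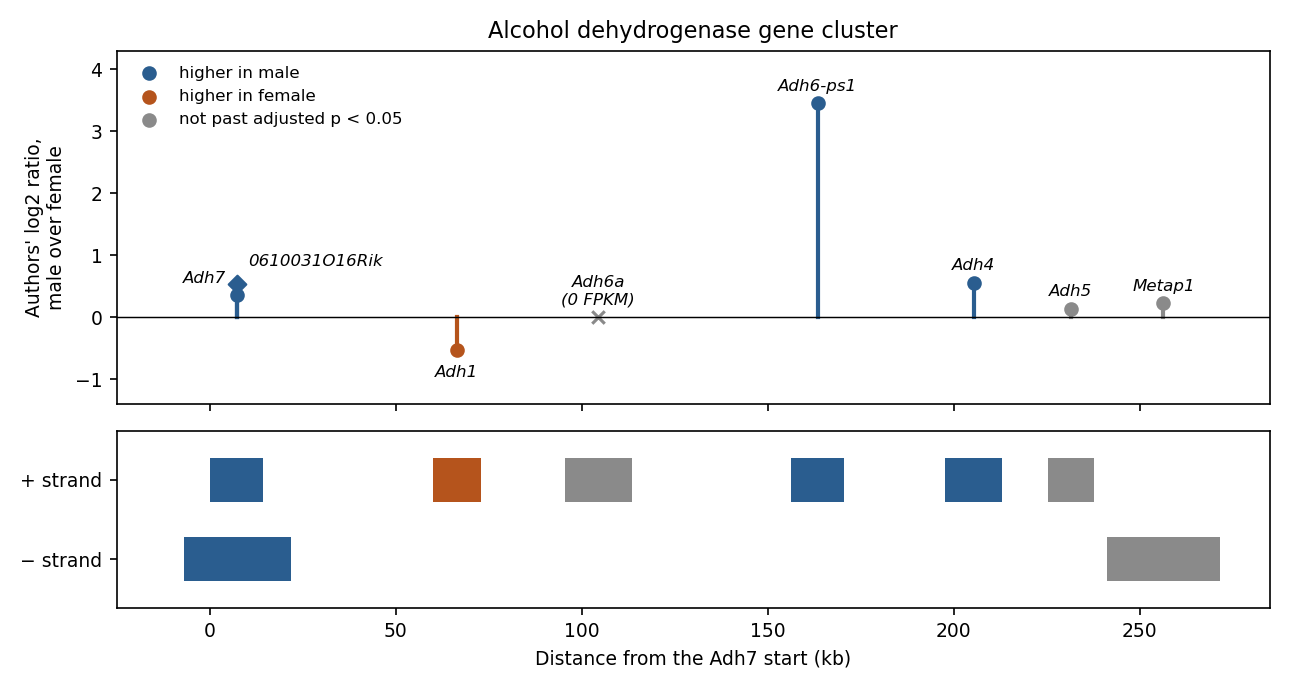
Authors' log2 ratio of male over female for the listed genes of the Adh cluster (top), placed at the middle of each gene by distance from the Adh7 start, and the extent of each gene on its GENCODE strand (bottom). Adh1 lies below 0, Adh7, Adh6-ps1 and Adh4 lie above it, and Adh5 and Metap1 did not pass.

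The 6 listed Adh genes of chromosome 3 spanned 237.7 kb, all on the plus strand, in the order Adh7, Adh1, Adh6a, Adh6-ps1, Adh4 and Adh5. Sex differences did not follow a single direction along the cluster. Between Adh1 and Adh4 lie Adh6a, listed at 0 FPKM in the gene body in both sexes, and the transcribed pseudogene Adh6-ps1, which was named after its value was seen. Adh6-ps1 was listed at 0.0770 FPKM in females and 0.791 FPKM in males. The authors' deposited table put it 10.9-fold higher in male liver in the gene body (adjusted p 2.38e-31) and 7.22-fold in introns (adjusted p 6.28e-26). It ends 27.2 kb before the start of Adh4, and it had the largest fold among the 27 listed Adh and Aldh genes that were called. Metap1, the next gene after Adh5, was listed at 7.18 FPKM in females and 8.08 FPKM in males and was not called.

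Both mitochondrial acetaldehyde dehydrogenases among the members had lower male means, and 1 of them passed. Aldh2, which oxidises acetaldehyde from ethanol, was the second most abundant member, at 330.2 FPKM in females and 293.5 FPKM in males (chromosome 5, 122017696 to 122043833). Its adjusted p in the authors' deposited table was 0.743, and its introns stood at 1.03 FPKM in females and 0.905 FPKM in males. Aldh1b1, a mitochondrial enzyme of like substrates whose coding sequence lies in a single exon, had the largest difference of the 10. Its authors' means were 37.1 FPKM in females and 20.1 FPKM in males (chromosome 4, 45811894 to 45817480). The authors' deposited table gave a female excess of 1.78-fold and an adjusted p of 1.08e-13. Its introns showed a similar log2 ratio (-0.79, against -0.83 in the gene body) but an adjusted p of 0.928 in the authors' deposited table. The intron means of 0.0917 and 0.0479 FPKM correspond to about 32 reads over the female pools and 17 over the male pools. Aldh2 stood at 8.91 times the level of Aldh1b1 in female and 14.6 times in male liver.

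Aldh3a2, the fatty aldehyde dehydrogenase of the endoplasmic reticulum, whose loss causes Sjögren-Larsson syndrome in humans, was higher in female liver in both measures. Its gene body was listed at 36.5 FPKM in females and 22.8 FPKM in males (chromosome 11, 61058254 to 61080688). The fold in the authors' deposited table was 1.54 with an adjusted p of 3.26e-08. In introns Aldh3a2 stood at 0.381 FPKM in females and 0.198 FPKM in males, a 1.75-fold difference with an adjusted p of 0.00189 in the authors' deposited table. Adh4 and Aldh3a2 were the only members called in introns, 1 in each direction, where 3.16% of 16569 genes were called (1.76% higher in male and 1.40% higher in female).

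The 3 members that work at the ends of other pathways had higher female means and were not called. Aldh1l1, which oxidises 10-formyltetrahydrofolate and so removes formate units from the folate pool, was listed at 234.2 FPKM in females and 185.4 FPKM in males (chromosome 6, 90500842 to 90549165). Its 1.22-fold difference lay just outside the threshold, with an adjusted p of 0.0523 in the authors' deposited table. Aldh8a1, which in humans acts on a semialdehyde of the kynurenine pathway, stood at 75.2 FPKM in females and 63.1 FPKM in males (chromosome 10, 21097106 to 21116384, adjusted p 0.198 in the authors' deposited table). Aldh6a1, the methylmalonate semialdehyde dehydrogenase of valine and thymine breakdown, was listed at 85.3 FPKM in females and 71.3 FPKM in males (chromosome 12, 85771668 to 85791900), with an adjusted p of 0.181 in the authors' deposited table. Its end overlaps that of Ccdc176 on the opposite strand. Ccdc176 was listed at no more than 0.138 FPKM in the gene body. Its introns were listed at 8.84 FPKM in females and 7.30 FPKM in males. Which gene those intronic reads came from was not tested.

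**Figure D3:**
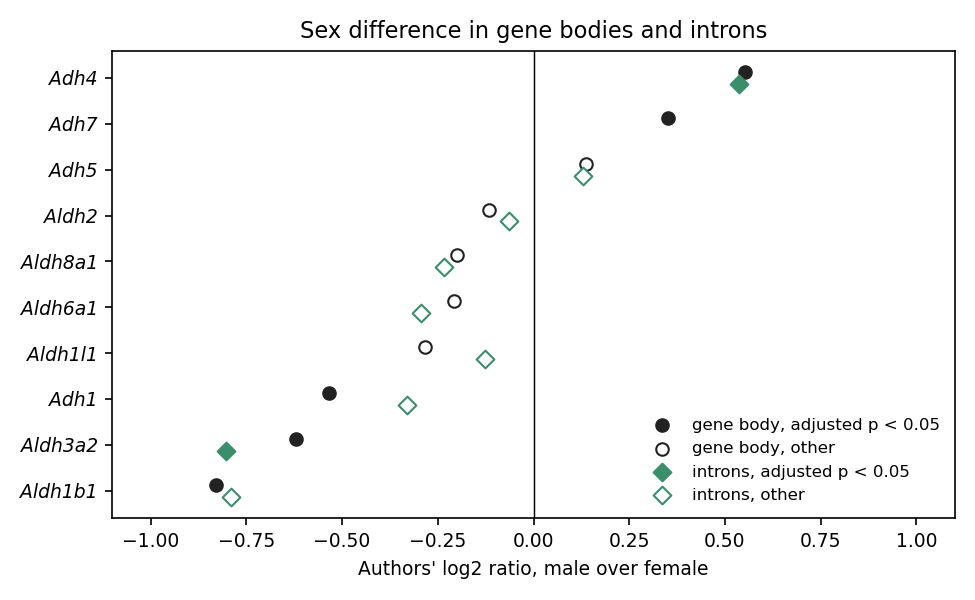
Authors' log2 ratio of male over female for each member, from gene bodies (circles) and introns (diamonds), filled where the authors' adjusted p was under 0.05. The 9 members with intron values lie on the same side of 0 in both measures, with Aldh1b1 lowest and Adh4 highest in the gene body.

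Gene body and intron ratios had the same sign in all 9 members with intronic values. These measures come from the same libraries and so are not separate samples. The median intron log2 ratio over the 9 was -0.23, against 0.01 over all genes with intronic values. Intron levels ran from 0.0479 FPKM for Aldh1b1 in male liver to 2.46 FPKM for Adh1 in female liver. The order by level was the same in both sexes for the first 4 members (Adh1, Aldh2, Aldh1l1 and Adh5). Adh4 ranked 7 in females and 5 in males, and the means of Aldh6a1, Aldh8a1 and Adh4 in male liver, from 63.1 to 73.8 FPKM, lay close together, with no spread given to tell them apart.

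Outside the 10 members, 17 Adh and Aldh genes were listed, 8 of them averaging at least 5 FPKM and 9 under 1 FPKM. Aldh1a1, the cytosolic retinal dehydrogenase, which also oxidises acetaldehyde, was the most abundant of them, at 247.6 FPKM in females and 288.5 FPKM in males. It was 1.21-fold higher in male liver by the authors' deposited table (adjusted p 0.0364), and 1.49-fold in introns (adjusted p 0.0132). The level of Aldh1a1 was thus 0.750 times that of Aldh2 in female and 0.983 times in male liver. Its close copy Aldh1a7, listed at 45.3 FPKM in females and 44.4 FPKM in males, was not called, and the split of reads between these copies is uncertain. Aldh4a1, a mitochondrial enzyme of proline breakdown, was 1.34-fold higher in female liver (74.4 against 53.6 FPKM, adjusted p 0.00527), in the authors' deposited table. Aldh9a1, which acts on the aldehyde of carnitine synthesis, was 1.28-fold higher in female liver (55.1 against 41.4 FPKM, adjusted p 0.00340) there. Aldh7a1, Adhfe1, Aldh16a1 and Aldh5a1, with female means of 55.5, 15.3, 8.04 and 6.60 FPKM and male means of 60.7, 12.5, 7.64 and 5.90 FPKM, were not called. The 27 genes together summed to 2011 FPKM in females and 1722 FPKM in males, and the 10 members held 74.7% and 70.0% of that.

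Among other routes of ethanol oxidation and use of the acetate it yields, 1 of 6 genes at a mean of at least 0.5 FPKM was male-biased and 2 female-biased. Of all 10936 genes at that minimum, 13.8% were called, 6.68% towards male and 7.14% towards female liver, and these shares are the background of each list below. The median log2 ratio was -0.19, against 0.01 over all genes at the minimum. Cat, the catalase that can oxidise ethanol with hydrogen peroxide, was listed at 502 FPKM in females and 618 FPKM in males, and was 1.28-fold higher in male liver by the authors' deposited table (adjusted p 0.00191). Cyp2e1, the microsomal ethanol oxidising P450, was listed at 1348 FPKM in females and 1332 FPKM in males and did not pass. Acss3, an acyl-CoA synthetase of mitochondria, was 3.45-fold higher in female liver by the authors' deposited table, with means of 5.55 and 1.55 FPKM, female first, and an adjusted p of 5.63e-34. The other, Acss2, which activates acetate in the cytosol and was named after its value was seen, was listed at 47.1 against 28.5 FPKM with a fold of 1.59 and an adjusted p of 0.000442 in the authors' deposited table. Acss1, its mitochondrial relative, was called higher in female liver at a level of 0.106 FPKM, under the minimum.

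NADH made by the dehydrogenases in the cytosol reaches mitochondria through shuttles. Of 9 shuttle genes, 1 was higher in each sex (median log2 ratio 0.07), beside 6.68% and 7.14% of all genes. Got1, the cytosolic aspartate aminotransferase, was 2.52-fold higher in female liver by the authors' deposited table (adjusted p 2.83e-30), with means of 75.2 and 28.8 FPKM, female first, and Gpd1, the cytosolic glycerol phosphate dehydrogenase, was 1.26-fold higher in male liver (46.8 in female and 56.9 FPKM in male, adjusted p 0.0129). Mdh1, at 146.9 FPKM in females and 125.9 FPKM in males, was not called.

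**Figure D4:**
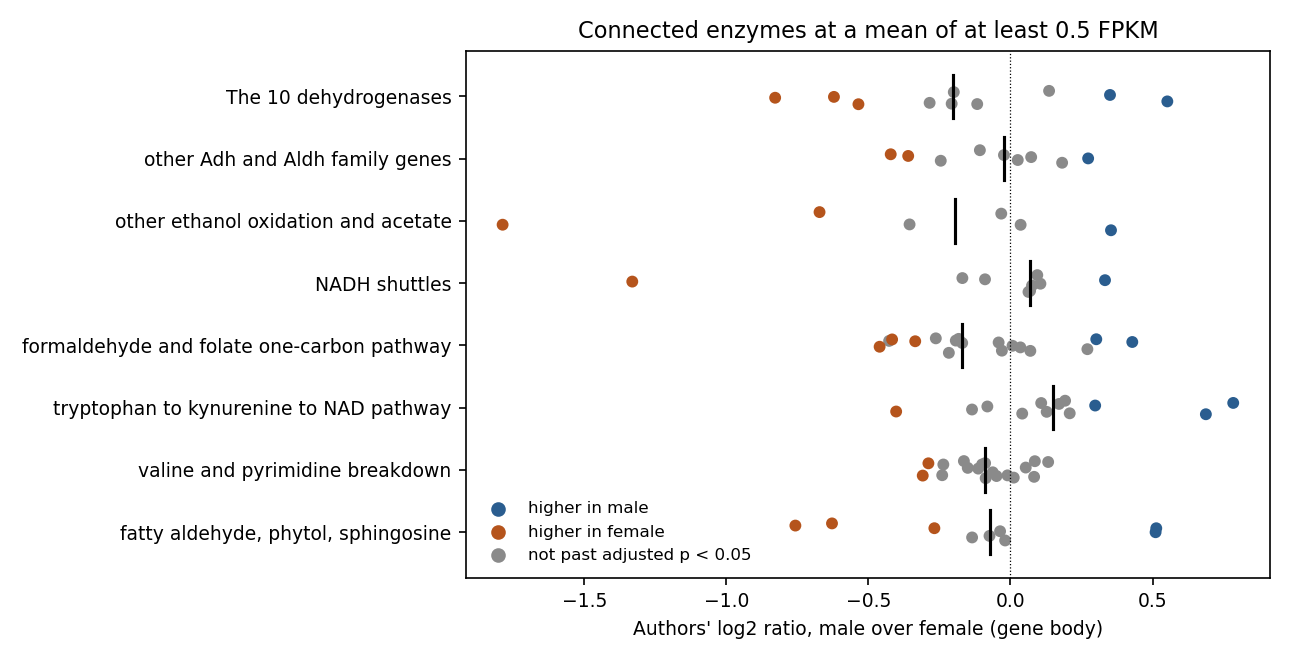
Authors' log2 ratio of male over female in the gene body for the 10 members and for the genes of 7 lists of connected enzymes at a mean of at least 0.5 FPKM; each point is a gene and the black bar is the median. List medians lie between -0.20 for the members and 0.15 for the kynurenine list, and each list holds points on both sides of 0.

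In the pathway of formaldehyde and folate units that Adh5 and Aldh1l1 belong to, 2 of 17 genes were male-biased and 3 female-biased, beside 6.68% and 7.14% of all genes (median log2 ratio -0.17). Dmgdh and Sardh, the mitochondrial dehydrogenases of dimethylglycine and sarcosine whose reactions release formaldehyde units, were female-biased, 1.38-fold and 1.33-fold, by the authors' deposited table, with adjusted p-values of 2.52e-05 and 0.00117. The other female-biased gene was Shmt1, the cytosolic serine hydroxymethyltransferase, and the male-biased genes were Ftcd and Tyms, all named after their values were seen. Mthfd2 and Mthfd1l, mitochondrial folate enzymes, were also called higher in male liver, at 2.96-fold and 1.83-fold in the authors' deposited table, but at no more than 0.678 and 0.255 FPKM, with means under the minimum. Gnmt, at 725 FPKM in females and 612 FPKM in males, did not pass.

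In the tryptophan to kynurenine pathway, where Aldh8a1 acts late, 3 of 12 genes were male-biased and 1 female-biased, beside 6.68% and 7.14% of all genes (median log2 ratio 0.15). Tdo2, which opens the tryptophan ring, and Aadat, a kynurenine aminotransferase, were male-biased, 1.61-fold and 1.72-fold, by the authors' deposited table, with adjusted p-values of 7.72e-11 and 5.03e-13. The third, Qprt, which leads on to NAD, was named after its value was seen. Afmid, kynurenine formamidase, was 1.32-fold higher in female liver by the authors' deposited table (adjusted p 0.00364), and Haao, the most abundant uncalled gene, was listed at 170.6 against 155.5 FPKM, female first.

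Of 18 genes of valine and pyrimidine breakdown, the pathways of Aldh6a1, none was higher in male and 2 were higher in female liver (median log2 ratio -0.09), a number called that is near the background of 13.8% of all genes. These were Abat, the aminotransferase of GABA and beta-alanine, at 1.24-fold, and Dbt, a subunit of the branched-chain ketoacid dehydrogenase, at 1.22-fold in the authors' deposited table (adjusted p 0.0205 and 0.0403). Hibadh, one step before Aldh6a1, was listed at 112.1 FPKM in females and 91.8 FPKM in males and was not called.

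Of 9 genes that make or remove fatty aldehydes, phytol products and sphingosine, the substrates of Aldh3a2 and their sources, 2 were male-biased and 3 female-biased, beside 6.68% and 7.14% of all genes (median log2 ratio -0.07). Hacl1, the peroxisomal lyase that releases a fatty aldehyde from phytanic acid, was 1.69-fold higher in female liver by the authors' deposited table (adjusted p 5.50e-17), with means of 132.1 and 75.3 FPKM, female first, and 1.88-fold in introns. Phyh, the hydroxylase one step before it, went the other way, at 341.4 FPKM in females and 468.7 FPKM in males, 1.42-fold with an adjusted p of 2.09e-08 in the authors' deposited table. Far1, which makes fatty alcohols, was 1.55-fold higher in female liver at 0.772 against 0.478 FPKM, and Acsl1, which activates long-chain fatty acids, had a male excess of 1.43-fold by the authors' deposited table. Agmo, the ether lipid monooxygenase whose product is a fatty aldehyde, made up the count in female liver at 20.2 against 16.1 FPKM and was named after its value was seen. Sgpl1, the sphingosine phosphate lyase, did not pass.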

How the data were processed

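The deposited table holds the authors' mean FPKM per sex over 3 pools, a ratio between the sexes with male on top, a signed fold change made from it (a score not used here) and an adjusted p-value, for gene bodies and for introns, per the file headers. Per the submitters' processing notes, TopHat2, featureCounts, edgeR and mm9 were used, without versions or steps. The method by which the p-value was adjusted is not given in the sources used here. In gene bodies the deposited ratio exceeded that of both FPKM means by a median factor of 1.04, and in introns of 1.09.

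The planned tests on values per pool were not run, because the columns hold means, and the authors' deposited p-value is described in their place. Nothing in the labels says whether a liver entered more than 1 pool. Members and gene lists were chosen with earlier results of these data known.

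Library totals came from small RNA genes with a lone read in 1 pool, and the totals could not be assigned to single pools. Intron values of 1 read gave the same totals within 0.1% for 233 of 233 female and 236 of 237 male genes checked against GENCODE intron lengths, so intronic FPKM is scaled to intron length and library total. Read numbers behind intron values are estimates from these totals and the GENCODE transcript and cover counting only.

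Genes were named by a rule: all members; other Adh and Aldh genes that were called or had a mean of at least 5 FPKM; and per list up to 2 called genes per direction with the largest ratio and the most abundant uncalled gene. Coordinates count from 1 on mm9, with 1 base added to deposited starts, and strands come from GENCODE. Adh6b, Aldh3b3, Mmut (listed as Mut), Tf and Adgre1 did not match a symbol. Alternatives were an adjusted p under 0.01, limits of 1.5-fold and 2-fold, minimum means of 0.5 and 2 FPKM, pseudocounts of 0.01, 0.1 and 1 FPKM, quantile normalization, rescaling without the 50 most abundant genes, and introns. Counting and scaling steps were tested on simulated data. Python 3.11.15, numpy 2.4.6, pandas 2.3.3 and matplotlib 3.10.9 were used.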

Additional observations from a re-analysis of the deposited data

How the results depend on the processing

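The sign of the gene body log2 ratio held for all 10 members under each alternative scaling. These were the 3 pseudocounts, quantile normalization and rescaling without the 50 most abundant genes. A pseudocount, added to both means alike, cannot change which mean is larger, and the rescaling is 1 factor per sex for all genes. Across these scalings and the deposited ratio, Adh1 ranged from -0.77 to -0.54, Aldh1b1 from -0.88 to -0.83 and Aldh3a2 from -0.68 to -0.62. Adh4 ranged from 0.49 to 0.57 and Adh7 from 0.25 to 0.35. None of these scalings moved the median of the 9084 genes at 1 FPKM or more in both sexes by more than 0.053 on the log2 scale. Of the 5 members called in gene bodies, 4 passed an adjusted p under 0.01 (all but Adh7), 2 also reached 1.5-fold by the deposited ratio (Aldh1b1 and Aldh3a2), 0 reached 2-fold, and 2 were called in introns. The count at 1.5-fold was 3, with Adh1 added, under the 3 pseudocounts and quantile normalization, and stayed at 2 under the rescaling. The log2 ratio of Adh1 was -0.59 under the pseudocounts and -0.77 under quantile normalization. All these scalings started from the FPKM means, whose ratio the deposited one exceeded by a median factor of 1.04. Adh1 stood at 1.503-fold with a pseudocount of 0.01 FPKM and 1.501-fold with 1 FPKM, against 1.449-fold by the deposited ratio. With pseudocounts the difference thus lay in the ratio used and not in the pseudocount. This comparison was chosen after seeing the data. Of the 2 called in introns, 1 passed 0.01 (Aldh3a2), 1 reached 1.5-fold (Aldh3a2) and 0 reached 2-fold. Minimum means of 0.5 and 2 FPKM, set on the gene body for both counts, could remove no member and left the counts as they were. All 10 members averaged at least 5 FPKM.

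Among the connected lists, introns gave fewer calls, as they did over all genes. Of 16569 genes with intronic values, 3.16% were called (1.76% male and 1.40% female). In gene bodies at the minimum of 0.5 FPKM the share was 13.8% (6.68% male and 7.14% female). The list of other Adh and Aldh genes counted here held 16 listed genes and left out Adh6-ps1. Of its 9 genes at that minimum, 1 was male-biased and 2 were female-biased. The intron counts took every list gene with intronic values, without that minimum. The counts of genes higher in female liver became 0 for other Adh and Aldh genes, the kynurenine list and valine and pyrimidine breakdown, and 1 each for ethanol and acetate, folate and fatty aldehydes. Those higher in male liver became 0 for ethanol and acetate, the shuttles and folate, and 1 each for the kynurenine and fatty aldehyde lists. At an adjusted p under 0.01 the counts became 0 for other Adh and Aldh genes (male), the shuttles (male) and valine and pyrimidine breakdown (female), and 1 for folate (male) and fatty aldehydes (female). The share of all genes at the threshold of 0.01 is not given here. With no filter on low values the folate list had 4 genes higher in male liver, beside 4.61% of all 17997 genes. No paired analysis was possible because the columns hold means per sex with no pool numbers, and leaving out a pool was not run for the same reason. The cause of these changes was not tested.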
